A study of Bos taurus with 20 samples.

Results

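Glycolysis splits glucose into pyruvate in the cytosol, and lactate dehydrogenase then converts pyruvate and lactate into each other. Several steps can be carried out by isozymes encoded by separate genes. In the ovarian follicle, cumulus cells are known to take up and break down glucose and to supply the oocyte with pyruvate and lactate, whereas the oocyte itself is known for a low capacity to use glucose through this pathway.

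The genes studied here were 10 genes of this pathway, namely HK1 and HK2 (hexokinases, which phosphorylate glucose), PFKP, PFKL, and PFKM (phosphofructokinases, which carry out the committed step), ALDOA (aldolase), PGK1 (phosphoglycerate kinase, a step that yields ATP), ENO1 (enolase), and LDHA and LDHB (subunits of lactate dehydrogenase). They were 10 of the 22550 genes or transcripts measured on a custom bovine Agilent array. Of these, 9 were found by the gene name that the array gives its probes, and ENO1, whose probes carry no gene name, was found by its RefSeq accession.

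The arrays came from cells of 3 to 6 mm antral follicles of slaughtered cattle. There were 4 arrays, each a biological replicate, of theca cells (TH, scraped from the follicle wall), granulosa cells (GC), cumulus cells (CC, which surround the oocyte), and oocytes, all at the immature stage. A further 4 arrays held CC detached from cumulus-oocyte complexes after 4 h of in vitro maturation (IVM, culture in which the oocyte resumes meiosis). All arrays had 1 colour (Cy3), and 200 ng of total RNA went into each labelling.

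Values are log2 intensity relative to the 75th percentile of all probes on the same array, and a gene's value is the median over its spots. The array carried 36 spots with 23 different 60-base probe sequences for the 10 genes, and each gene was well above background on all 20 arrays. The share of all probes well above background was 56.7 to 62.8% on the TH, GC, and CC arrays, 54.2 to 58.3% on the arrays of CC after IVM, and 49.4 to 68.8% on the oocyte arrays, where replicate 2 had the lowest share. The 75th percentile was 1521 to 2889 intensity units on the oocyte arrays, 536 to 657 on the CC arrays, and 284 to 396 on those of CC after IVM.

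The cell types were checked against their markers. All 6 oocyte markers (GDF9, BMP15, ZP2, ZP3, ZP4, NLRP5) were higher in oocytes than in CC by limma, and their summed level relative to the 75th percentile was 248 to 330 on oocyte arrays, 0.561 to 3.00 on CC arrays, and 0.161 to 0.56 on arrays of CC after IVM. The granulosa and cumulus markers FSHR, CYP19A1, AMH, and INHBA summed to 381 to 393 on CC arrays and to 2.20 to 3.02 on oocyte arrays, where CYP19A1 was above background on no array. The 5 theca markers, among them the steroidogenic enzyme CYP17A1, summed to 575 to 831 on TH arrays and to 25.2 to 32.6 on CC arrays. CYP17A1 was above background on no CC array, but INSL3, COL1A1, COL1A2, and ACTA2 were above background on all 4. INSL3 and COL1A1 were the highest of them in CC, with means of 4.54 and 2.13. The blood cell and endothelial markers summed to 1.40 to 4.49 on TH arrays and to 0.454 to 2.02 on oocyte arrays, so that these 2 groups overlapped. They summed to at most 0.19 on the arrays of the other groups. Outside TH, PTPRC and CDH5 were above background on no array. VWF, however, was above background on all 4 oocyte arrays and higher in oocytes than in CC by 5.83 ± 0.59 (limma adjusted p = 2.63e-07).

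The probes are printed for the genes whose isozymes or probes differed most in what follows. Some are shown whole and others as a run of 30 of their 60 bases, all as the array lists them. Capitals mark AATAAA, the hexamer that often precedes the polyadenylation site, and sequences without capitals do not hold it. The hexamer, searched on the printed strand only, was present in 4 of the 23 probe sequences (17.4%) and in 7.97% of the 50909 different probe sequences of the array.
HK1 probe 1: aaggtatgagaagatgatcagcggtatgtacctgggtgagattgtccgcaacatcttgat
HK1 probe 2: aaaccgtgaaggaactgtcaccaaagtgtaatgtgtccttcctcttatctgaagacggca
HK1 probe 3: ggaattacccatcgcttttgtgagccatgt
HK2 probe 1: agagtttggttcccaagccttggctctcct
PFKL probe 1: accttttctaggAATAAAatcacctgactg
PFKL probe 2: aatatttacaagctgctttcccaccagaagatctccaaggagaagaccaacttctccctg
PFKM probe 1: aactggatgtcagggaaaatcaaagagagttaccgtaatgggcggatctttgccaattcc
LDHA probe 2: gtccaacttttttccctccagttgatcact
LDHB probe 1: ttgaacaaatcaAATAAAccacctagtgta
HK1 probes 1 and 2 belong to one HK1 transcript of the array's annotation, and probes 3 and 4 to another. The 30 bases printed for HK1 probe 3 are also part of HK1 probe 4, and the 2 probe sequences of HK2 share 59 bases. LDHA probes 2 and 3 share 30 bases and LDHB probes 1 and 2 share 34, so none of these are independent measures. The deposited files give the position of the transcript and not of the probe within it. On the UMD 3.1 build, the HK1 transcripts span chr28:25854741-25925054, HK2 chr11:9723269-9766920, PFKP chr13:45500599-45553520, PFKL chr1:145770058-145797205, and PFKM chr5:32312957-32337525. Further along the pathway, ALDOA spans chr25:26470488-26475202, PGK1 chrX:79282708-79305386, ENO1 chr16:45401695-45416462, LDHA chr29:26543861-26554318, and LDHB chr5:88962679-88981219.

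The first comparison asked how the oocyte differed from the CC around it. Of the 10 genes, 8 were lower in oocytes and none was higher, while HK1 and LDHA did not pass the test (limma, Benjamini–Hochberg adjusted p under 0.05 over all genes). Across all genes, 63.7% passed in this comparison, 31.8% as higher and 32% as lower. The share that passed was 88.5% with normexp background correction (14744 of 22550 genes lower) and 63.9% after quantile normalization (6923 lower). The median log2 difference was -3.46 over the 10 genes and -0.40 over all genes. Every labelling took the same amount of total RNA, and values are relative to a percentile of the same array. The differences are therefore in abundance relative to the other RNA of a sample, and the amount of RNA per cell was not measured. In these bulk samples, a different mix of cell types and a different relative level within cells cannot be told apart from a gene's value alone.

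**Figure D1:**
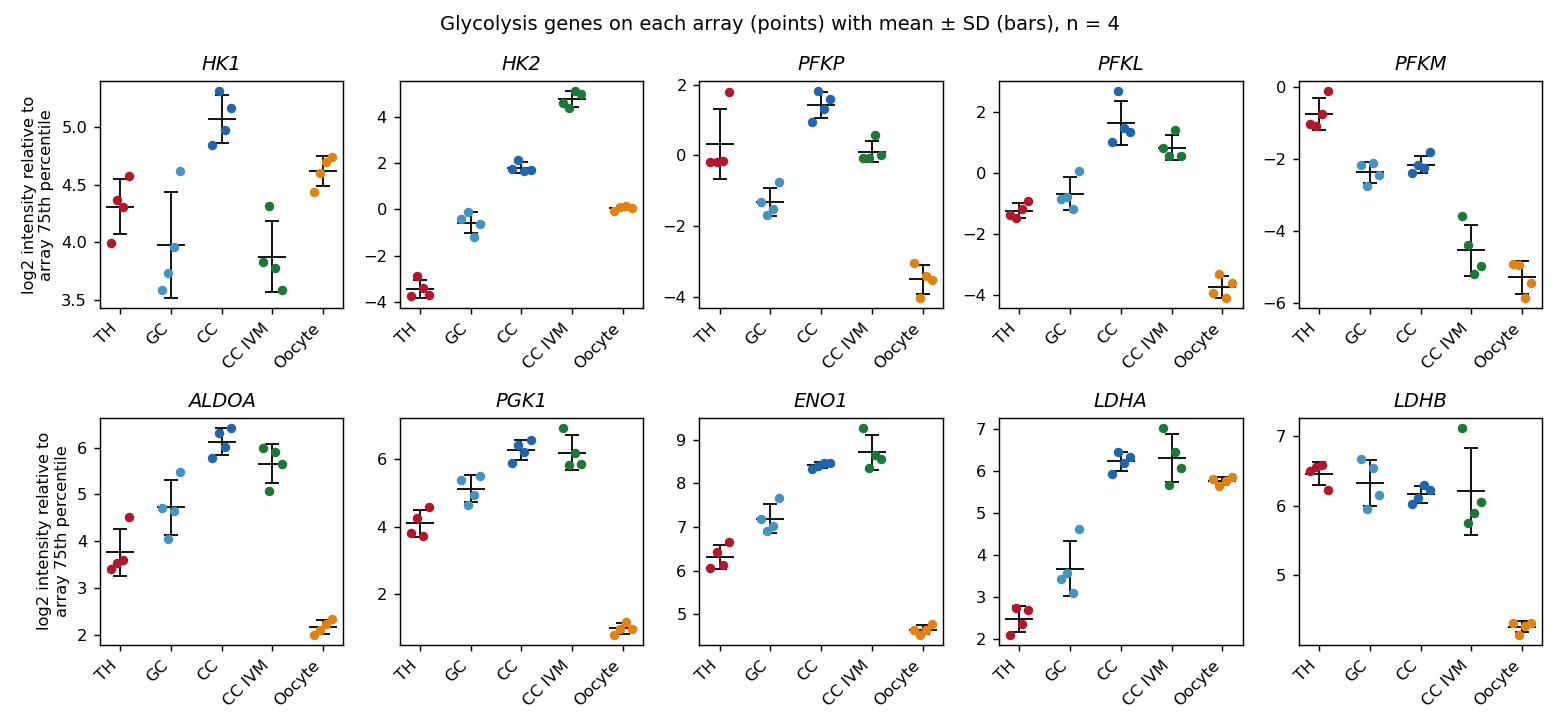
Log2 intensity of each gene relative to the array's 75th percentile (vertical axis, scaled per gene) on the 4 arrays of each group (points), with the group mean and SD (bars). Oocyte points lie below all somatic points for PFKP, PFKL, ALDOA, PGK1, ENO1, and LDHB, and HK2 is highest in CC after 4 h of IVM.

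At the committed step, the 3 phosphofructokinase genes were all lower in oocytes. PFKL measured 1.03, 2.68, 1.47, and 1.34 on the 4 CC arrays and -3.94, -3.31, -4.10, and -3.61 on the 4 oocyte arrays. PFKP measured 0.95, 1.81, 1.32, and 1.59 in CC and -3.05, -4.03, -3.41, and -3.53 in oocytes. Every oocyte array lay below every CC array for both genes. The log2 difference was -5.37 ± 0.34 (SE) for PFKL (limma adjusted p = 9.38e-10) and -4.93 ± 0.40 for PFKP (limma adjusted p = 1.92e-08), 41.3-fold and 30.4-fold in linear terms. PFKM, the isozyme best known from muscle, measured -2.37, -2.17, -2.26, and -1.81 in CC and -4.91, -4.95, -5.86, and -5.43 in oocytes. Its difference of -3.13 ± 0.26 was the smallest of the 3 (limma adjusted p = 2.49e-08).

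The size of these differences depended on the probe. PFKL probe 1, the probe with the hexamer, differed by -7.02 ± 0.20 between oocytes and CC. PFKL probe 2 was well above background on all 4 CC arrays and on no oocyte array, so that it gives only a bound of at least 6.93-fold lower in oocytes (limma adjusted p = 2.64e-05). PFKP probes 1 and 2 differed by -6.26 ± 0.31 and -3.67 ± 0.61. With the brightest probe in place of the median over spots, the differences were -7.02 for PFKL and -6.30 for PFKP.

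In the second part of the pathway, PGK1 showed the largest difference. It measured 5.88, 6.42, 6.22, and 6.55 on the CC arrays and 0.82, 0.98, 1.20, and 0.99 on the oocyte arrays, a difference of -5.27 ± 0.23 (38.5-fold, limma adjusted p = 1.71e-11). ALDOA ranged from 5.78 to 6.42 in CC and from 2.01 to 2.34 in oocytes (-3.96 ± 0.29, limma adjusted p = 5.69e-09). ENO1 ranged from 8.34 to 8.48 in CC and from 4.53 to 4.77 in oocytes (-3.78 ± 0.18, limma adjusted p = 3.55e-11). For all 3 genes the oocyte and CC arrays did not overlap, and both probe sequences of each gene were lower in oocytes by limma.

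The hexokinases differed less. HK2, the isozyme induced by hormones and growth signals in many tissues, measured 1.72, 2.13, 1.65, and 1.72 in CC and -0.05, 0.10, 0.15, and 0.06 in oocytes. Its difference was -1.74 ± 0.23 (3.34-fold, limma adjusted p = 6.33e-06). HK1, the isozyme found in most tissues, measured 4.84, 5.31, 4.97, and 5.17 in CC and 4.44, 4.61, 4.70, and 4.75 in oocytes. The 2 groups did not overlap, but the difference of -0.45 ± 0.21 did not pass the test (limma adjusted p = 0.0764, 95% interval -0.91 to 0.0012) and lay -0.05 from the median of all genes.

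The 2 lactate dehydrogenase genes parted. LDHB, whose subunit is known to favour the conversion of lactate to pyruvate, measured 6.03, 6.10, 6.29, and 6.23 in CC and 4.31, 4.15, 4.27, and 4.31 in oocytes. It was lower in oocytes by -1.90 ± 0.17 (3.74-fold, limma adjusted p = 4.67e-08). LDHA, whose subunit is known to favour the conversion of pyruvate to lactate, measured 5.93, 6.45, 6.19, and 6.34 in CC and 5.80, 5.63, 5.76, and 5.86 in oocytes. All oocyte arrays were below the CC arrays, yet the difference of -0.46 ± 0.27 did not pass the test (limma adjusted p = 0.143, 95% interval -1.03 to 0.10). Its sign depended on the processing. LDHA was higher in oocytes by 0.83 after quantile normalization (limma adjusted p = 0.00538), where the median of all genes was 0.02. It was higher by 0.09 in the deposited log2 table (limma adjusted p = 0.764), where that median was -0.65 and background is not subtracted. The cause was not tested.

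Whether isozymes of 1 step changed unequally was tested with the log2 difference of the 2 genes within each array, which any scaling by a constant leaves as it is. Between oocytes and CC, LDHA minus LDHB shifted by 1.44, HK1 minus HK2 by 1.29, PFKP minus PFKM by -1.80, and PFKL minus PFKM by -2.24. In each of these 4 pairs the oocyte and CC arrays did not overlap, giving p = 0.0286 in an exact two-sided permutation test, the smallest p that 4 against 4 arrays allow. Adjusted over the 10 exact tests made, that p was 0.0571. PFKP minus PFKL shifted by 0.44 (exact permutation p = 0.343). The shifts of the pairs with a phosphofructokinase depended on the probes, because PFKL probe 2 was above background on no oocyte array and PFKM probe 1 on 1. With the brightest probe of each gene, PFKP minus PFKM shifted by -3.47, PFKL minus PFKM by -4.19, and PFKP minus PFKL by 0.72 (exact permutation p = 0.0286 each, not adjusted).

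**Figure D2:**
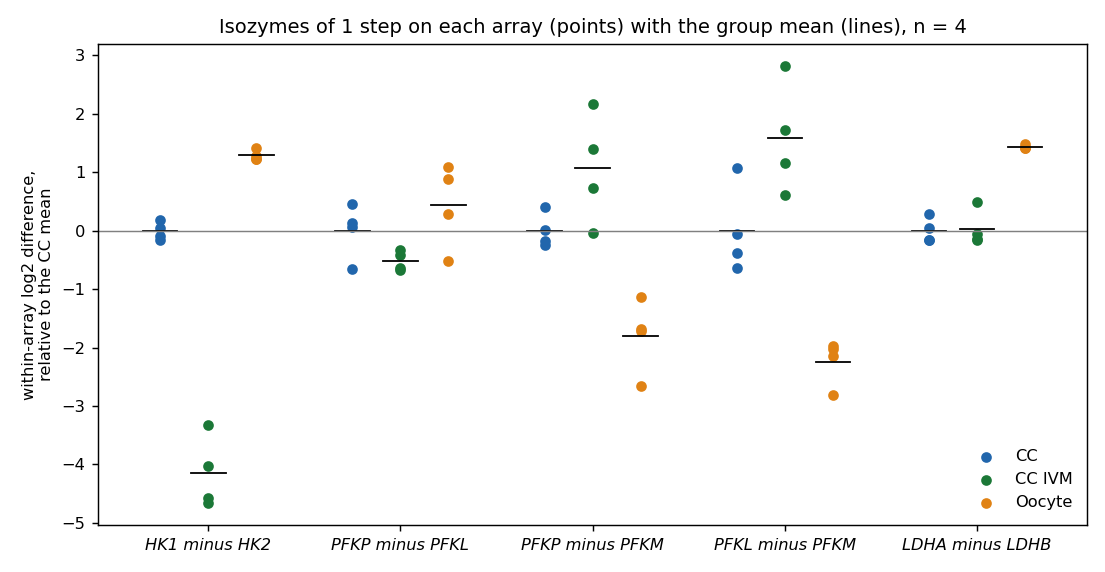
Within-array log2 difference of isozymes of 1 step, relative to the mean of the CC arrays (vertical axis), on the 4 arrays of CC, CC after 4 h of IVM, and oocytes (points) with the group mean (lines). HK1 minus HK2 is shifted by -4.14 after IVM and by 1.29 in oocytes, and LDHA minus LDHB is shifted by 0.04 after IVM and by 1.44 in oocytes. The phosphofructokinase pairs include probes at background in oocytes.

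The oocyte was then compared with the other somatic cells. These comparisons use the same 4 oocyte arrays as the one with CC, so they are not independent of it. Against TH, 9 of the 10 genes passed, 7 lower and 2 higher in oocytes, where 64.6% of all genes passed, 32.5% as higher and 32.1% as lower. Against GC, all 10 genes passed, 7 lower and 3 higher, where 68.6% of all genes passed, 30.7% as higher and 37.9% as lower. The 7 genes lower in oocytes than in TH, and also lower than in GC, were PFKP, PFKL, PFKM, ALDOA, PGK1, ENO1, and LDHB.

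LDHA and HK2 were the genes that were higher in oocytes than in TH and in GC. LDHA measured 2.11, 2.75, 2.37, and 2.70 in TH and 3.43, 3.57, 3.09, and 4.61 in GC, below every oocyte array. The oocyte was higher than TH by 3.28 ± 0.27 (9.72-fold, limma adjusted p = 1.88e-08) and higher than GC by 2.08 ± 0.27 (4.24-fold, limma adjusted p = 3.87e-06). For LDHA, the order was thus TH, GC, oocyte, and CC, with the last 2 not distinguished.

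HK2 measured -3.72, -2.88, -3.37, and -3.70 in TH and -0.40, -0.10, -1.18, and -0.61 in GC. It was higher in oocytes than in TH by 3.48 ± 0.23 (11.2-fold, limma adjusted p = 1.86e-09). It was higher in oocytes than in GC by 0.64 ± 0.23 (limma adjusted p = 0.0243). The second call did not hold without GC replicate 3, where the difference was 0.44 (limma adjusted p = 0.0899), or without oocyte replicate 3, where it was 0.61 (limma adjusted p = 0.0553). With all arrays, it did not hold when the percentile was taken over probes detected on every array (0.43, limma adjusted p = 0.118) or within slide 1 (0.28, limma adjusted p = 0.593).

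HK1 differed little between the oocyte and the somatic cells. It was higher in oocytes than in GC by 0.65 ± 0.21 (limma adjusted p = 0.0144), although GC replicate 4, at 4.62, overlapped the oocyte arrays. This call did not hold with the mean over probes (0.28, limma adjusted p = 0.365), within slide 2 (0.43, limma adjusted p = 0.205), or without GC replicate 1 (0.51, limma adjusted p = 0.0524). Against TH it was 0.31 ± 0.21 (limma adjusted p = 0.208). Against the mean of the 3 somatic cell types, where 71.3% of all genes passed (32.9% as higher, 38.3% as lower), 9 of the 10 genes passed and HK1 did not (0.17 ± 0.17, limma adjusted p = 0.377).

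**Figure D3:**
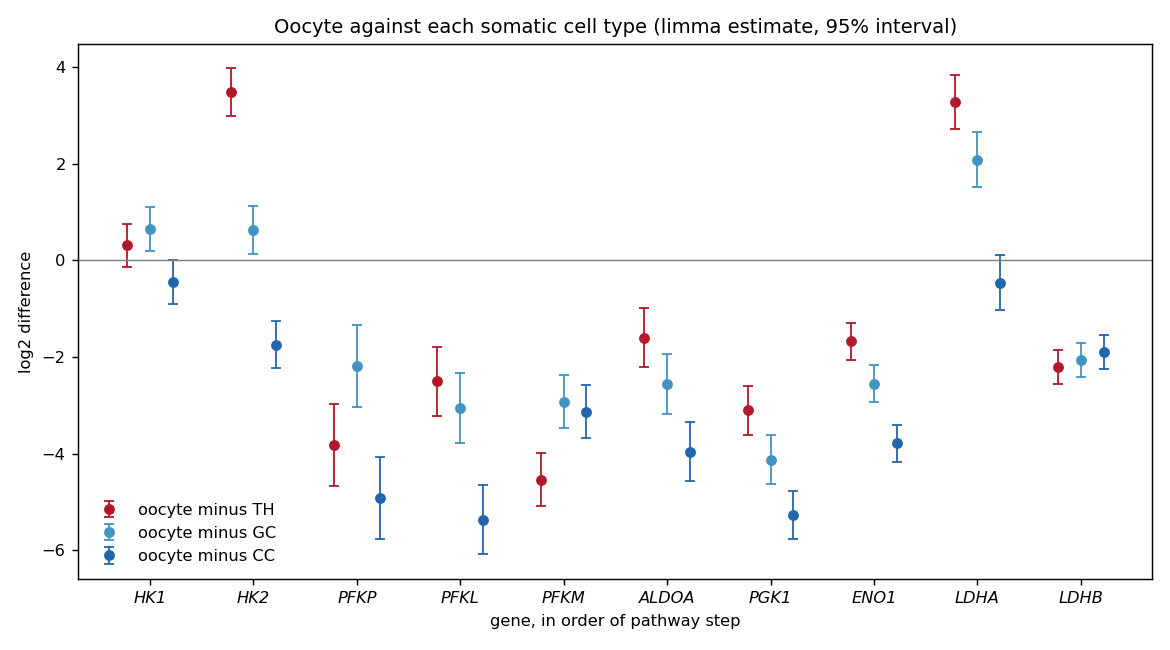
Log2 difference between oocytes and TH, GC, or CC (vertical axis) for each gene in the order of the pathway, as limma estimates with 95% intervals from 4 arrays a group. HK2 and LDHA lie above 0 against TH and GC and below 0 against CC, whereas PFKP to ENO1 and LDHB lie below 0 against all 3.

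Of the 3 genes with the deepest fall in oocytes against CC, the differences from TH and GC were smaller. PGK1 was 8.59-fold lower in oocytes than in TH and 17.4-fold lower than in GC, each with an SE of 0.23 on the log2 scale. PFKL was lower by -2.50 ± 0.34 and -3.05 ± 0.34 over all its spots. These values understate the difference, since PFKL probe 2 was above background on no oocyte or TH array and on 1 GC array. PFKL probe 1, above background on all of them, was lower in oocytes by -4.05 ± 0.20 against TH and by -4.45 ± 0.20 against GC. PFKP was lower by -3.82 ± 0.40 and -2.19 ± 0.40. PFKM was the exception among the phosphofructokinases, with its largest difference against TH (-4.54 ± 0.26, limma adjusted p = 2.90e-10). PFKM probe 1 was above background on 1 oocyte array, and PFKM probe 2, above background on all, differed from TH by -4.10 ± 0.18. LDHB had nearly one size of difference throughout, -2.20 ± 0.17 against TH and -2.07 ± 0.17 against GC.

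Among the somatic cells, the genes were mostly higher in CC. Against GC, 8 of the 10 genes were higher in CC and none was lower, where 9.88% of all genes passed, 5.28% as higher and 4.61% as lower. PFKP differed most, by 2.74 ± 0.40 (6.66-fold, limma adjusted p = 0.000461). LDHA was higher by 2.55 ± 0.27 (5.85-fold), HK2 by 2.38 ± 0.23 (5.20-fold), and PFKL by 2.31 ± 0.34 (4.97-fold, with its probe 2 above background on 1 GC array). The other 4, HK1, ALDOA, PGK1, and ENO1, were higher by 1.10 to 1.40. In all 8 genes the CC and GC arrays did not overlap. The share of all genes whose groups did not overlap was not counted in this or any other comparison. Markers of other cell types also differed, with 5 of the 6 oocyte markers higher in CC than in GC and 2 of the 5 theca markers lower. The oocyte markers summed to 0.178 to 0.399 on GC arrays and the theca markers to 29.8 to 115, where COL1A1 measured 3.89 and 3.54 in GC replicates 2 and 3 and 1.80 and 1.07 in replicates 1 and 4. The part of these markers in the differences was not tested.

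PFKM and LDHB did not differ detectably between CC and GC. The difference was 0.21 for PFKM (95% interval -0.34 to 0.76) and -0.17 for LDHB (95% interval -0.52 to 0.19). Within slide 1 (replicates 1 and 2) and within slide 2 (replicates 3 and 4), all 10 genes kept the sign of their difference. With 2 arrays a group, however, only 1 of the 10 passed on each slide, where 0.82% and 1.99% of all genes passed.

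Against TH, 8 of the 10 genes were higher in CC and 1 was lower, where 31.8% of all genes passed, 17.4% as higher and 14.4% as lower. HK2 was higher by 5.22 ± 0.23 (37.4-fold, limma adjusted p = 4.74e-10) and LDHA by 3.74 ± 0.27 (13.4-fold, limma adjusted p = 3.57e-08). PFKM was the gene lower in CC, by -1.41 ± 0.26 (limma adjusted p = 0.000512), and measured -1.04, -1.08, -0.74, and -0.12 in TH. LDHB differed by -0.30 ± 0.17 (limma adjusted p = 0.207). PFKP was higher by 1.11 ± 0.40 (limma adjusted p = 0.0456) with overlapping groups, because TH replicate 4 measured 1.79 while the other 3 TH arrays measured -0.19 to -0.16. Without that array the difference was 1.60 (limma adjusted p = 0.00034). Leaving out each of the 16 arrays in turn kept this call in 5 cases, with adjusted p up to 0.13. PFKP probe 1 was higher in CC than in TH by 1.44 ± 0.31 (limma adjusted p = 0.00208). The dimmer probe 2 differed by 0.74 ± 0.61 (limma adjusted p = 0.458). In TH replicate 4, probe 2 measured 0.38, against -2.86 to -2.65 on the other TH arrays, and probe 1 measured 3.15, against 2.32 to 2.48.

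The second question was how CC changed after 4 h of IVM. HK2 rose and HK1, PFKP, and PFKM fell, while PFKL, ALDOA, PGK1, ENO1, LDHA, and LDHB did not pass the test. These 4 of 10 genes stand against 45.8% of all genes that passed, 30.3% higher and 15.5% lower. The median log2 difference was -0.28 over the 10 genes and 0.37 over all genes. Relative to the median of all genes, HK2 was higher by 2.58, and HK1, PFKP, and PFKM differed by -1.56, -1.68, and -2.74. All 4 arrays of CC after IVM were on a slide of their own and the immature CC were on 2 others, so that slide and IVM cannot be told apart.

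HK2 measured 4.58, 4.37, 5.08, and 4.98 after IVM, against 1.65 to 2.13 before. Every array after IVM lay above every array of immature CC and above every array of the other cell types. The rise was 2.95 ± 0.22 (7.71-fold, limma adjusted p = 1.68e-05), and its 2 nearly identical probe sequences rose by 3.00 and 2.94. HK1 measured 3.83, 4.32, 3.78, and 3.59 after IVM, below every array of immature CC, and fell by 1.20 ± 0.22 (2.29-fold, limma adjusted p = 0.0024). HK1 minus HK2 within an array shifted by -4.14 (exact permutation p = 0.0286, adjusted over 10 tests 0.0571).

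The HK1 probes did not all move alike. Probes 3 and 4, of one HK1 transcript, fell by 1.19 ± 0.22 and 1.21 ± 0.23. Probe 1, of the other transcript, rose by 1.22 ± 0.22 (limma adjusted p = 0.00375), from -3.50 ± 0.14 to -2.28 ± 0.36 (mean ± SD, n = 4), and was well above background on all 8 arrays. Probe 2, of the same transcript as probe 1, was well above background on all 4 arrays of immature CC and on none after IVM, which gives at least 2.57-fold lower after IVM (limma adjusted p = 0.00298). Probes 3 and 4 hold 4 of the 6 HK1 spots, so the median over spots follows them.

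PFKM measured -3.59, -4.39, -5.18, and -4.96 after IVM, against -2.37 to -1.81 before, without overlap. It fell by 2.38 ± 0.33 (5.19-fold, limma adjusted p = 0.000578). PFKM probe 1 was above background on no array after IVM, and probe 2, above background on all of them, fell by 2.18 ± 0.27. PFKP measured -0.06, -0.08, 0.57, and 0.00 after IVM, against 0.95 to 1.81 before, and fell by 1.31 ± 0.25 (2.48-fold, limma adjusted p = 0.00299). PFKL had a difference of -0.79 ± 0.36 with overlapping groups (limma adjusted p = 0.0971). Its probe 1 fell by 1.08 ± 0.20 (limma adjusted p = 0.00425), and its dimmer probe 2 had a difference of -0.57 ± 0.65 (limma adjusted p = 0.493).

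For the genes from aldolase on, the groups overlapped. The difference was -0.47 for ALDOA (95% interval -1.04 to 0.10), -0.08 for PGK1 (-0.71 to 0.54), and 0.29 for ENO1 (-0.21 to 0.79). It was 0.08 for LDHA (-0.57 to 0.73) and 0.04 for LDHB (-0.62 to 0.70). After IVM, replicate 1 had the highest value of PGK1, ENO1, LDHA, and LDHB among its 4 arrays, at 6.91, 9.27, 7.02, and 7.11. After quantile normalization, which brings the median of all genes to 0.01, ENO1, LDHA, and LDHB had differences of -0.44, -0.48, and -0.51, none of which passed, and ALDOA fell by 0.93 (limma adjusted p = 0.0278). HK1, PFKP, and PFKM were lower and HK2 was higher, past the threshold, under all 21 alternatives, each array left out in turn among them. The alternative with slide as a random block cannot separate slide from IVM. Its estimated correlation within slides was -0.26, and 15312 of all genes passed under it. The fall of PFKM was 0.70 with normexp background correction and 1.31 in the deposited log2 table.

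**Figure D4:**
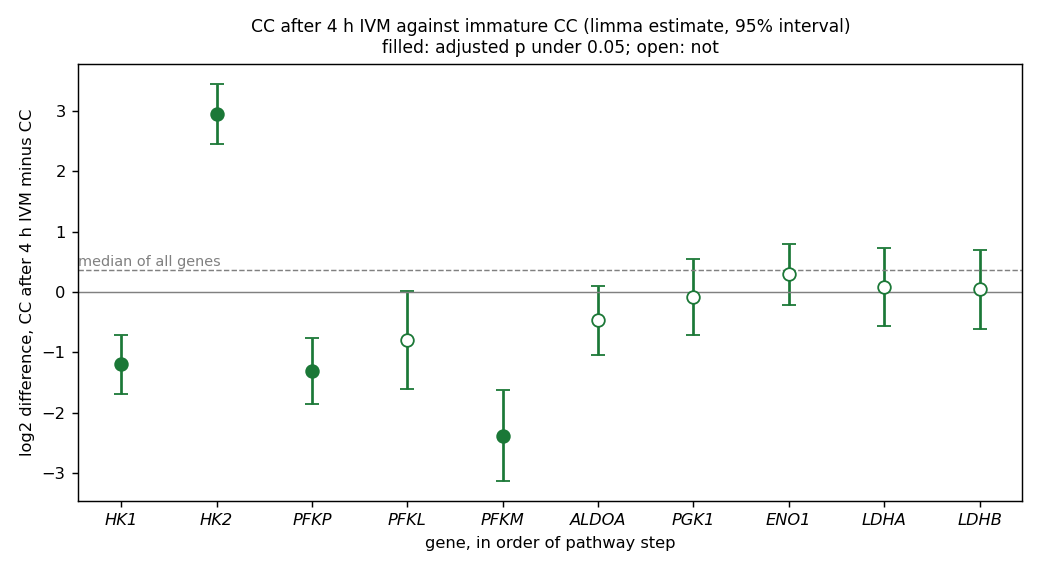
Log2 difference between CC after 4 h of IVM and immature CC (vertical axis) for each gene in the order of the pathway, as limma estimates with 95% intervals from 4 arrays a group, filled where the test was passed, with the median of all genes dashed. HK2 is higher by 2.95, HK1, PFKP, and PFKM are lower by 1.20 to 2.38, and the intervals of the other 6 genes include 0.

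Other markers moved with IVM. Of the 6 cumulus expansion markers, 4 rose and none fell, among them HAS2 (hyaluronan synthase), which rose by 7.76 ± 0.40 (limma adjusted p = 3.33e-06) and was above background on 2 of the 4 arrays of immature CC. Their summed level was 0.973 to 2.81 in immature CC and 7.34 to 15.2 after IVM. Of the 4 granulosa and cumulus markers, FSHR, CYP19A1, and AMH fell by 1.25 ± 0.39, 1.26 ± 0.41, and 1.04 ± 0.28 and INHBA rose by 1.07 ± 0.17, and their sum was 625 to 769 after IVM. Of the 6 oocyte markers, 4 were lower after IVM, with the sums given above, and all 6 were above background on at least 3 CC arrays. Of the 5 blood cell and endothelial markers, 4 were called higher, with sums of 0.0345 to 0.0472 before and 0.0871 to 0.137 after, but PTPRC and CDH5 were above background on no array of either group and VWF on 1 before and 3 after. The part of these markers in the results was not tested.

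**Figure D5:**
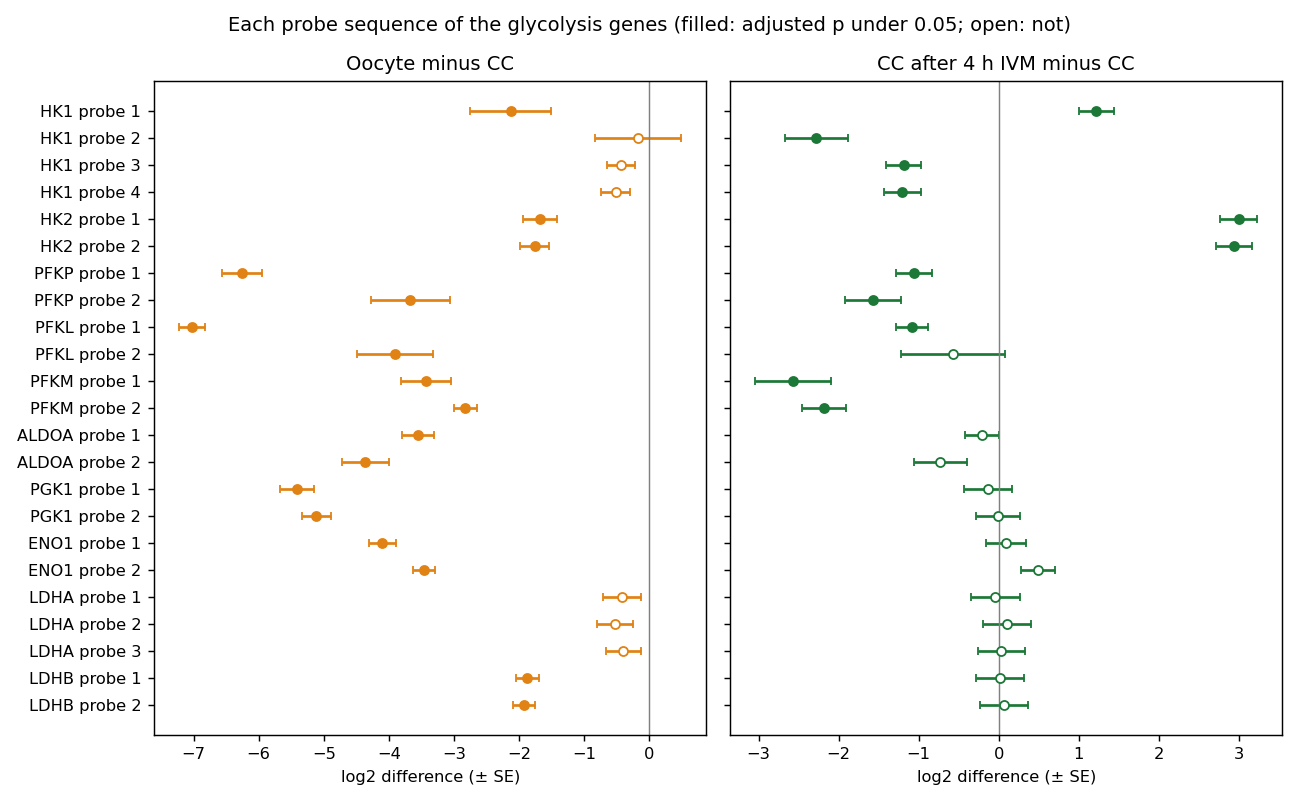
Log2 difference of each of the 23 probe sequences (horizontal axis, ± SE) between oocytes and CC (left) and between CC after 4 h of IVM and immature CC (right). All 23 differences between oocytes and CC are below 0 and 17 passed the test, and after IVM 3 probes rose, 2 of HK2 and 1 of HK1, and 8 fell. Some probes of 1 gene share bases, and the matching shares over all probe sequences of the array were not counted.

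The other genes of glycolysis were taken from a list of 25, of which 24 were on the array. In oocytes against CC, 15 were lower, 6 were higher, and 3 did not pass, with a median of -1.97. Over all genes, 32% passed as lower and 31.8% as higher in this comparison, and 15.5% as lower and 30.3% as higher after IVM. The same shares stand beside the counts of transport, pyruvate, hexosamine, pentose phosphate, and hypoxia genes below. The remaining steps of the trunk were all lower in oocytes. TPI1 (triosephosphate isomerase) was lower by -4.79 ± 0.27, GAPDH (named G3PDH on the array) by -3.33 ± 0.48, PKM (pyruvate kinase, PKM2 on the array) by -3.00 ± 0.28, PGAM1 (phosphoglycerate mutase) by -2.26 ± 0.20, and GPI (glucose-6-phosphate isomerase) by -0.90 ± 0.22 (limma adjusted p = 0.00179). ADPGK, an ADP-dependent glucokinase, was lower by -6.65 ± 0.21, and the aldolase gene ALDOC by -3.96 ± 0.24.

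The 6 genes higher in oocytes were PFKFB1, LDHC, BPGM, TIGAR, HKDC1, and PFKFB2, and HKDC1 was above background on 3 oocyte arrays and 1 CC array. LDHC, a lactate dehydrogenase subunit best known from male germ cells, measured 2.72, 2.56, 2.96, and 2.71 in oocytes and -6.30 to -4.82 in CC (8.14 ± 0.32, limma adjusted p = 4.13e-12). PFKFB1, which sets the level of a phosphofructokinase activator, measured 1.95 to 2.56 in oocytes and was above background on no CC array, giving at least 217-fold (limma adjusted p = 5.73e-11). BPGM, bisphosphoglycerate mutase, was higher by 5.27 ± 0.18 (limma adjusted p = 1.32e-12).

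After IVM, 5 of the 24 genes passed as higher and 6 as lower, where 45.8% of all genes passed, 30.3% as higher and 15.5% as lower. Of the 5, only ENO2 and TIGAR were above background after IVM, while HKDC1, PGK2, and PKLR were above background on none of those arrays, so that no rise can be given for them. GPI fell by 1.29 ± 0.21 (limma adjusted p = 0.00134), PFKFB2 by 2.31 ± 0.26, ADPGK by 1.85 ± 0.28, and BPGM by 1.78 ± 0.23. ENO2, the enolase isozyme known from neurons, rose by 1.14 ± 0.25 (limma adjusted p = 0.00712). TPI1, GAPDH, PGAM1, and PKM did not pass, with differences of -0.33, -0.76, 0.33, and -0.19.

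Of 14 genes of glucose and lactate transport, 10 were lower in oocytes than in CC and 2 were higher. SLC16A3 (MCT4, a lactate exporter) was lower by -6.46 ± 0.34, and SLC2A3 (GLUT3, a glucose transporter) by -5.80 ± 0.31. EMB, a partner protein of monocarboxylate transporters, was lower by -6.93 ± 0.35, and was above background on 1 oocyte array. SLC16A1 (MCT1, which can import pyruvate and lactate) was higher by 1.04 ± 0.21, and SLC2A8 (GLUT8) by 0.60 ± 0.17. After IVM, 4 of the 14 fell and 2 rose. SLC16A3 fell by 3.20 ± 0.29, SLC2A3 fell by 1.79 ± 0.48, and SLC2A12 was above background on no array after IVM (at least 1.72-fold lower), while SLC2A1 (GLUT1) rose by 1.51 ± 0.22 and SLC16A8 by 0.86 ± 0.27.

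Of 13 genes for the entry of pyruvate into mitochondria, 5 were higher in oocytes than in CC and 5 were lower. PDK3, a kinase that inhibits pyruvate dehydrogenase, was higher by 2.66 ± 0.18, PDP1, a phosphatase that activates it and was above background on 1 CC array, by 2.81 ± 0.38, and MPC1, a subunit of the mitochondrial pyruvate carrier, by 1.91 ± 0.20. PDHB and DLAT, subunits of the pyruvate dehydrogenase complex, were lower by -2.77 ± 0.16 and -1.29 ± 0.16, and the kinase PDK4 was above background on no oocyte array (at least 36.9-fold lower). After IVM, 3 of the 13 rose and 5 fell. MPC1 rose by 2.48 ± 0.18, PDP1 by 1.89 ± 0.35, and PDHA1 by 0.91 ± 0.27, whereas PDP2 fell by 3.68 ± 0.40 (above background on 2 arrays after IVM), DLAT by 2.18 ± 0.23, and PDK2 by 1.23 ± 0.18.

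Pathways that branch off from the first steps of glycolysis were also on the array. Of 5 genes of the hexosamine pathway, which makes the amino sugar unit of hyaluronan, 3 were higher in oocytes than in CC and 2 were lower, and 4 rose after IVM. GFPT2, an isozyme of its first step, rose by 3.93 ± 0.41 after IVM (limma adjusted p = 9.33e-05), UAP1 by 2.46 ± 0.18, and GFPT1 by 1.45 ± 0.36. GFPT1, GFPT2, and GNPNAT1 were higher in oocytes by 3.55 ± 0.18, 3.40 ± 0.44, and 2.05 ± 0.15, and UAP1 and PGM3 were lower by -3.22 ± 0.21 and -0.76 ± 0.20. Of 8 genes of the pentose phosphate pathway, 3 were higher in oocytes (RPIA by 4.53 ± 0.22, RPE by 2.06 ± 0.14, PGD by 1.38 ± 0.23) and 3 were lower (TKT by -2.01 ± 0.19, H6PD by -1.32 ± 0.31, PGLS by -1.26 ± 0.27). After IVM, RPIA rose by 1.16 ± 0.20 and RPE by 0.73 ± 0.25. H6PD passed as lower but was above background on no array after IVM and its groups overlapped, so that no fall can be given for it.

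Of 14 genes of the hypoxia response, among them HIF1A, ARNT, and EPAS1 of its transcription factors, 12 were lower in oocytes than in CC and 2 were higher. P4HA1 (a collagen hydroxylase) was lower by -7.11 ± 0.19, NDRG1 by -5.03 ± 0.31, and VEGFA by -4.10 ± 0.23, while EPAS1 and EGLN3 were higher by 2.47 ± 0.32 and 1.14 ± 0.30. After IVM, 5 of the 14 fell and 2 rose. ANKRD37 fell 8.60-fold, EGLN3 was above background on no array after IVM (at least 2.79-fold lower), and ADM, whose probes the array names after a microRNA but describes as adrenomedullin, fell by 1.62 ± 0.23. NDRG1 rose by 3.02 ± 0.41 and EPAS1 by 2.15 ± 0.21.

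The genes whose centred log2 values lay nearest to those of a member over the 20 arrays were sought among 11362 genes. Each of these had a spot well above background on most arrays of every group. Nearest to LDHB were UFC1 and the array's transcripts ENSBTAT00000005950 and ENSBTAT00000044192, at root mean square differences of 0.16, 0.16, and 0.17. For LDHA they were ENSBTAT00000022189, RIMKLA, and MGC157368, at 0.30, 0.59, and 0.62. HK1 lay nearest to TSEN34 (0.28), MGC157263 (0.31), and PCNXL3 (0.33), PFKM to MOCOS (0.41), CARKL (0.44), and TST (0.47), and PFKP to MFAP2 (0.50), NLGN2 (0.59), and RRBP1 (0.65). HK2 lay nearest to LIN7A (0.94), TMEM37 (0.94), and TARSL2 (1.09). The values were not scaled, so these differences grow with a gene's own spread and cannot be compared between members.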

How the data were processed

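For each of the 20 arrays the authors deposited Agilent Feature Extraction output (version 10.7.3.1 per the labels), with, for every spot, the intensity of the spot, that of its local background, and a processed intensity from which background has been subtracted but which is not scaled across arrays. The deposited log2 table holds, within 5.0e-09, log2 of the median signal minus the array's median, so background is not subtracted in it. Control spots and spots marked as outliers (at most 23 per array) were dropped. Each array's log2 processed intensities were set relative to their 75th percentile over 61325 probes, and a gene's value was the median of its spots. Of 9779 probes with no gene name, 734, among them those of ENO1, were named by RefSeq accession. Linear models (limma 3.58.1, run in R 4.3.3, with version 1.17.8 of data.table for reading) were fitted to the 16 arrays of the 4 cell types and, separately, to the 8 arrays of CC and CC after 4 h of IVM, with Benjamini–Hochberg adjustment over 22550 genes and a threshold of 0.05. Isozyme pairs were compared by an exact permutation test over arrays. Python 3.11.15 (pandas 2.3.3, numpy 2.4.6) assembled the tables, and matplotlib 3.10.9 drew the plots.

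A probe not well above background on any array of a group gives only a bound. For it, each array of that group was given its measured value or the lowest signal well above background, whichever was higher, before the 2 means were compared. The named genes were all 10 members in each comparison, the other trunk steps (GPI, TPI1, GAPDH, PGAM1, PKM), up to 3 genes per list and direction with the largest difference among those past the threshold without overlap (oocytes or CC after IVM against CC), the markers, and the 3 genes nearest to LDHA, LDHB, and each member called after IVM. The members, lists, and rules were chosen with earlier results of these data known. TIGAR, PGK2, PKLR, HKDC1, PFKFB2, and H6PD are also named where the rule does not name them, to complete a count, after their values were seen.

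The fits were tested on simulated data with 200 of 22550 genes changed. For oocytes against CC, 26.5% were recovered at a log2 change of 1 and 74.0% at 2, with 2 and 7 unchanged genes called, and for CC after IVM against CC 0% and 76.0%, with 0 and 7. In the data, 63.7% and 45.8% of all genes passed in these 2 comparisons, far more than were changed in the simulation. The Benjamini–Hochberg threshold was therefore stricter in the simulation, and the recovered shares do not give the power of the fits to the data. The number of arrays limits the precision. Alternatives concerned the scaling (quantiles, the array median, the 75th percentile of probes detected throughout), the background (normexp with an offset of 50, or the deposited table), the summary of probes (mean or brightest), dim genes (filtered), the model (20 arrays together, replicate number or slide as a block, array weights, trended and robust eBayes, the analysis of variance of the methods), and the arrays (each slide alone, each array omitted).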

Additional observations from a re-analysis of the deposited data

Results flagged for a closer look

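Of the 50 combinations of a gene and a group, 3 had 1 array whose gap to the nearest of the others exceeded Dixon's 95% critical value for 4 samples (0.829). Chance alone flags about 1 in 20 groups (5%). PFKP in TH replicate 4 was 1.79 against -0.19 to -0.16 on the other 3 arrays, HK2 in CC replicate 2 was 2.13 against 1.65 to 1.72, and PFKP in CC after IVM replicate 3 was 0.57 against -0.08 to 0.00.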

How the results depend on the processing

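Over the members, 2299 of 2390 values under an alternative kept their direction and their side of the threshold, 26 passed only under the alternative, 39 no longer passed, and 26 changed sign. Between oocytes and CC, LDHA was 0.83 after quantile normalization (limma adjusted p = 0.00538) and 0.093 in the deposited table, where HK1 was 0.093. HK1 was -0.013 against TH and -0.049 against the somatic mean with the percentile over detected probes, and -0.070 against the somatic mean with the mean over probes. LDHB between CC and GC was 0.049 in the deposited table. After IVM, ENO1, LDHA, and LDHB were -0.44, -0.48, and -0.51 after quantile normalization and -0.24, -0.42, and -0.40 in the deposited table. LDHA and LDHB were -0.044 and -0.081 with the percentile over detected probes and -0.055 and -0.056 with normexp, LDHB was -0.055 with array weights, and PGK1 was 0.0012 with the brightest probe. Leaving out each array moved the IVM difference of LDHA from -0.16 to 0.29, of LDHB from -0.26 to 0.19, and of PGK1 from -0.33 to 0.041. The cause was not tested.

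HK1 in oocytes against CC passed under 6 settings with all arrays kept (limma adjusted p = 0.0139 to 0.0436) and without GC replicate 4 (0.0255), as did LDHA with the percentile over detected probes (0.05) and without GC replicate 4 (0.0351). HK1 was higher in oocytes than in TH under 4 settings (0.45 to 0.94). After IVM, ALDOA and PFKL were lower under 4 settings each, by -0.96 to -0.47 and -1.07 to -0.54. For both genes these settings included slide as a random block, which cannot separate slide from IVM. Between CC and GC, 1 member passed within slide 1 and 1 within slide 2, where each group has 2 arrays. After IVM, 3 isozyme pairs changed unequally with the brightest probe, among them PFKP minus PFKM (1.12) and PFKL minus PFKM (1.11). Members called after IVM were 4 to 6, and with the replicate number as a block 4. With that block, 9 members passed in oocytes against CC, HK1 among them (-0.45, limma adjusted p = 0.0314), and no other member changed its call. Same-numbered arrays of the cell types had a median correlation of deviations of 0.12 (-0.26 to 0.44, 13 of 24 pairs over 0.1), against -0.022 (19 of 72 over 0.1) for different numbers, and the 4 same-numbered pairs of the IVM comparison had -0.22 to -0.026. Since not every pair was over 0.1, the numbers were not taken to pair the samples, which does not show that they are unrelated. Each array left out gave 8 to 10 members for oocytes against CC, 9 to 10 against GC, 8 to 9 for CC against TH, and no change in the count otherwise.

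Over all genes, 10332 passed after IVM, 66.1% of them higher, against 6453 (43.2%) after quantile normalization, 17665 (83.3%) with normexp, 6752 (48.3%) with dim genes filtered out, 6530 without CC replicate 1, and 6604 without CC replicate 3. CC against GC gave 2229 (53.4% higher), 3915 with array weights, 185 and 449 within slides 1 and 2, and 73.2% and 43.0% higher in the deposited table and with the percentile over detected probes. CC against TH gave 7165 (54.8% higher), 3320 and 4156 within slides 1 and 2, and 40.1% higher with that percentile. Among genes that passed for oocytes against CC, TH, GC, and the somatic mean, the share higher was 49.8%, 50.3%, 44.7%, and 46.2%. With normexp it was 26.2%, 27.3%, 24.8%, and 26.4%. In the deposited table it was 36.8% against CC and 39.4% against TH. With the percentile over detected probes, 6480 genes were higher and 9709 lower against TH. The number passing against CC was 14371, with 7210 lower. It was 19967 (14744 lower) with normexp, 19749 (12482) in the deposited table, 19166 (11433) with array weights, and 18199 (11071) without oocyte replicate 2. It was 14402 (6923 lower) after quantile normalization and 13972 (6626) with the array median. Within-slide values cannot be had for IVM, and leaving out arrays was not run for the isozyme pairs. Dim probes, such as HK1 probe 2, PFKL probe 2, and PFKM probe 1, limit what can be said where they reach background.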
